A study of Mus musculus with 12 samples.

Results

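The 7 genes Smpd3, Phospho1, Alpl, Enpp1, Ank, Slc20a1 and Slc20a2 were taken by symbol from the 52654 genes with a count in each of the 12 libraries. They form the route by which mineralising cells obtain and clear phosphate, pyrophosphate and phosphocholine. All 7 passed the filter on low counts and were among the 13340 genes tested, although Enpp1 had only 4 to 18 reads in a library and reached at most 7 reads in any co-culture library on control titanium. The libraries came from MC3T3-E1 subclone 14, a clonal mouse preosteoblast line from calvaria, and each of the 4 groups held 3 libraries, which the series calls biological triplicates. The groups were co-cultures with osteoclasts on titanium discs with nanotopography, co-cultures on control titanium, isolated cultures on nanotopography and isolated cultures on control titanium.

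All cells, the isolated ones included, received β-glycerophosphate at 7 mM and L-ascorbic acid at 5 µg/mL as osteogenic supplements, and RNA was taken on day 7. In the co-cultures, RAW 264.7 macrophages that had been driven towards osteoclasts with 50 ng/mL RANKL for 5 days shared the medium for the final 2 days from an insert whose pores measured 0.4 µm. RANKL and inserts are recorded for the co-cultures only, so effects of osteoclasts, RANKL and inserts cannot be told apart. The libraries hold RNA of whole cultures, in which fewer cells of a type and less RNA per cell cannot be told apart. The labels do not say how the 3 libraries of a group were separated beyond the word triplicates, and p-values measure the spread between these libraries.

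Bone mineral first forms inside matrix vesicles and is then laid onto collagen. The Smpd3 product, a neutral sphingomyelinase, cuts sphingomyelin of the plasma membrane into ceramide and phosphocholine. PHOSPHO1 is a soluble phosphatase that releases phosphate from phosphocholine and phosphoethanolamine inside the vesicle. On the outer face, tissue-nonspecific alkaline phosphatase (Alpl) breaks down pyrophosphate, an inhibitor of mineral growth, which ENPP1 makes from nucleotides and the ANK protein (Ank, also called Ankh) helps to bring out of the cell. The paralogous sodium-phosphate cotransporters PiT-1 (Slc20a1) and PiT-2 (Slc20a2) carry phosphate into cells.

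The promoters of 3 of the genes are shown because the genes behaved differently: Phospho1 was lower in co-culture on both surfaces, Slc20a1 was higher in co-culture on both surfaces, and Alpl was called lower in co-culture on nanotopography and not on control titanium, a difference that did not hold once GC content was allowed for. RefSeq promoter windows of build GRCm38.p6, with 250 bases before and 50 after the start, were matched by symbol for 5 of the 7 genes. Those of Smpd3 and Slc20a2 were not analysed here. Capitals mark matches on either strand to the GC box GGGCGG, the E-box CACGTG, the TATA box TATAAA, the CCAAT box CCAAT and the Runx core TGTGGT, and adjoining GC boxes may share bases. The windows lie at chr11:95824250-95824549 on the plus strand for Phospho1, chr4:137796335-137796634 on the minus strand for the upstream start of Alpl, and chr2:129198523-129198822 on the plus strand for the upstream start of Slc20a1.
Phospho1: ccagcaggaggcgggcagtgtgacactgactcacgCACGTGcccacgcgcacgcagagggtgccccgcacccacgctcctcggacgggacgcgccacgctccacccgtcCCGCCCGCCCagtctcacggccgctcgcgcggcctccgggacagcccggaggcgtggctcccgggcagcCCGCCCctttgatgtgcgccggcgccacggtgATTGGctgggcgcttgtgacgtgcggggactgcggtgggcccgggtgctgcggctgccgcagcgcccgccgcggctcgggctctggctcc
Alpl: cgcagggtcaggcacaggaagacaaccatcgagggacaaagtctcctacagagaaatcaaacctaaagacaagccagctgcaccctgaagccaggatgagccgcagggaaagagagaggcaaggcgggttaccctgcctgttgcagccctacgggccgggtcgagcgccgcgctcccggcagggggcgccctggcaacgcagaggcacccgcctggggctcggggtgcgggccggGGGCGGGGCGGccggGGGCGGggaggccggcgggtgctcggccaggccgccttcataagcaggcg
Slc20a1: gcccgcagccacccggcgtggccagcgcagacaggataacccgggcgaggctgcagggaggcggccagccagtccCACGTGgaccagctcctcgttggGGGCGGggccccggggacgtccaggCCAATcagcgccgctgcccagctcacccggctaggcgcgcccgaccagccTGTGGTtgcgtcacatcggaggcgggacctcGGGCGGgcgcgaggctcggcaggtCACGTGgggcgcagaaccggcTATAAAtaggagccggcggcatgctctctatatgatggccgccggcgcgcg

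The E-box CACGTG stood in the windows of Phospho1 and Slc20a1, which changed in opposite directions in co-culture. It began 215 bases before the start of Phospho1 and 175 and 22 bases before that of Slc20a1, and 7.15% of the 32851 mouse promoter windows of the same length hold it. The GC box was found at the upstream start of all 5 genes and in 35.7% of all windows. The CCAAT box stood in the windows of Phospho1 and Slc20a1 and in 37.4% of all windows. The Runx core was matched in those of Slc20a1 and Enpp1 and in 16.8% of all windows. The TATA box was matched in Slc20a1 from 1 base before the annotated start and in the downstream start of Alpl, and in 13.6% of all windows. The upstream windows were rich in G and C, with 78.0% GC and 53 CpG for Ank, 77.0% and 42 for Phospho1, 73.0% and 36 for Slc20a1, 70.0% and 26 for Alpl, and 61.7% and 22 for Enpp1. The medians over all windows were 52.7% GC and 7 CpG. The downstream starts of Alpl and Slc20a1 had 54.3% and 52.0% GC with 4 and 6 CpG.

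Total counts per library ran from 5866842 to 9207831. All 11 osteoblast markers were detected in each group, and they summed to 44200 to 55970 CPM (counts scaled by library total) in co-cultures on nanotopography, 73560 to 85520 in co-cultures on control titanium, 84650 to 89970 in isolated cultures on nanotopography and 82880 to 96430 in isolated cultures on control titanium. The 11 macrophage markers summed to 12.1 to 34.7, 4.02 to 8.56, 4.29 to 5.37 and 3.58 to 7.04 CPM in the same order of groups. C1qa and C1qb were at 0 in every library, and Ptprc, Adgre1 and Tyrobp were at 0 in all isolated libraries. The 11 osteoclast markers summed to 299 to 386, 349 to 355, 300 to 316 and 289 to 303 CPM, mainly from Ctsk, Itgb3 and Nfatc1, which isolated cells also expressed. Itgb3 was higher in co-culture, with means of 96.05, 104.4, 54.02 and 48.02 CPM in the same order. The means of Ctsk were 184.5, 170.5, 163.6 and 171 CPM, and those of Nfatc1 48.12, 56.54, 65.94 and 57.27 CPM. Dcstamp, Atp6v0d2 and Tnfrsf11a had 26, 73 and 38 reads in all over the co-cultures on nanotopography and 6, 7 and 1 over those on control titanium, and were at 0 in every isolated library, while Calcr was at 0 throughout. The part of these other cells in the results below was not tested.

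Fold changes followed GC content wherever nanotopography entered a comparison, and in opposite directions in the 2 cultures for the surface. In co-culture against isolated cultures on nanotopography, the median log2 fold change of genes under 40% GC was 1.01 and that of genes over 60% GC was -1.34, whereas on control titanium the medians were -0.25 and -0.19. For nanotopography against control titanium they were 0.67 and -0.92 in co-culture and -0.57 and 0.28 in isolated cells. Mitochondrial ribosomal RNA took 8.66 to 15.8% of counts in co-cultures on nanotopography, 6.15 to 6.73% in co-cultures on control titanium, 4.52 to 6.35% in isolated cultures on nanotopography and 6.70 to 9.80% in isolated cultures on control titanium. The noncoding genes Gm26917 and Gm42418 together took 0.3505 to 0.8002%, 1.52 to 2.08%, 3.66 to 8.33% and 2.77 to 5.46% of counts in the same order, so the cultures did not overlap on either surface. Leaving out these and the mitochondrial genes changed no call of the 7 genes. The GC content of the longest transcript was 60.6% for Phospho1, 56.5% for Alpl, 55.8% for Smpd3, 53.2% for Slc20a2, 51.4% for Ank, 48.3% for Slc20a1 and 45.8% for Enpp1. Log2 fold changes are therefore also given with the trend of each library with GC content and transcript length removed, and called GC-adjusted. The part of GC content in the results was not tested, and this adjustment also removes any true change that follows GC content.

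Tests below are edgeR quasi-likelihood F tests over all 13340 genes with Benjamini-Hochberg adjustment, and a gene is called changed at an adjusted p below 0.05. Levels are TMM-scaled CPM, given for single libraries in the order of replicates 1, 2 and 3 or as mean ± SD with n = 3, and fold changes carry an approximate standard error (SE). In co-culture against isolated cultures on control titanium, 4 of the 7 genes were called (Slc20a1 higher, Smpd3, Phospho1 and Enpp1 lower), beside 19.7% of all tested genes, 10.9% higher and 8.72% lower. On nanotopography, 4 of 7 were called in the same comparison (Slc20a1 higher, Smpd3, Phospho1 and Alpl lower), beside 59.2% of all tested genes, 28.7% higher and 30.4% lower. For nanotopography against control titanium, 0 of 7 were called by edgeR in isolated cells, beside 9.71% of all tested genes, 4.32% higher and 5.39% lower. DESeq2 and limma-voom also called 0, and at an unadjusted p of 0.05 edgeR counted 1, Phospho1. The count of all genes called there depended on single libraries, being 3 in place of 1295 without isolated replicate 1 or 2 on control titanium or isolated replicate 3 on nanotopography. In co-culture, 4 of 7 were called for the surface (Enpp1 higher, Smpd3, Phospho1 and Alpl lower), beside 42.0% of all tested genes, 18.6% higher and 23.3% lower. The 4 comparisons between groups share libraries and are given side by side. Once GC-adjusted, the calls for co-culture were 4 of 7 beside 26.9% of all tested genes on control titanium, and 5 of 7 beside 39.4% on nanotopography. For the surface they were 1 of 7 beside 5.45% in isolated cells and 3 of 7 beside 18.3% in co-culture.

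**Figure D1:**
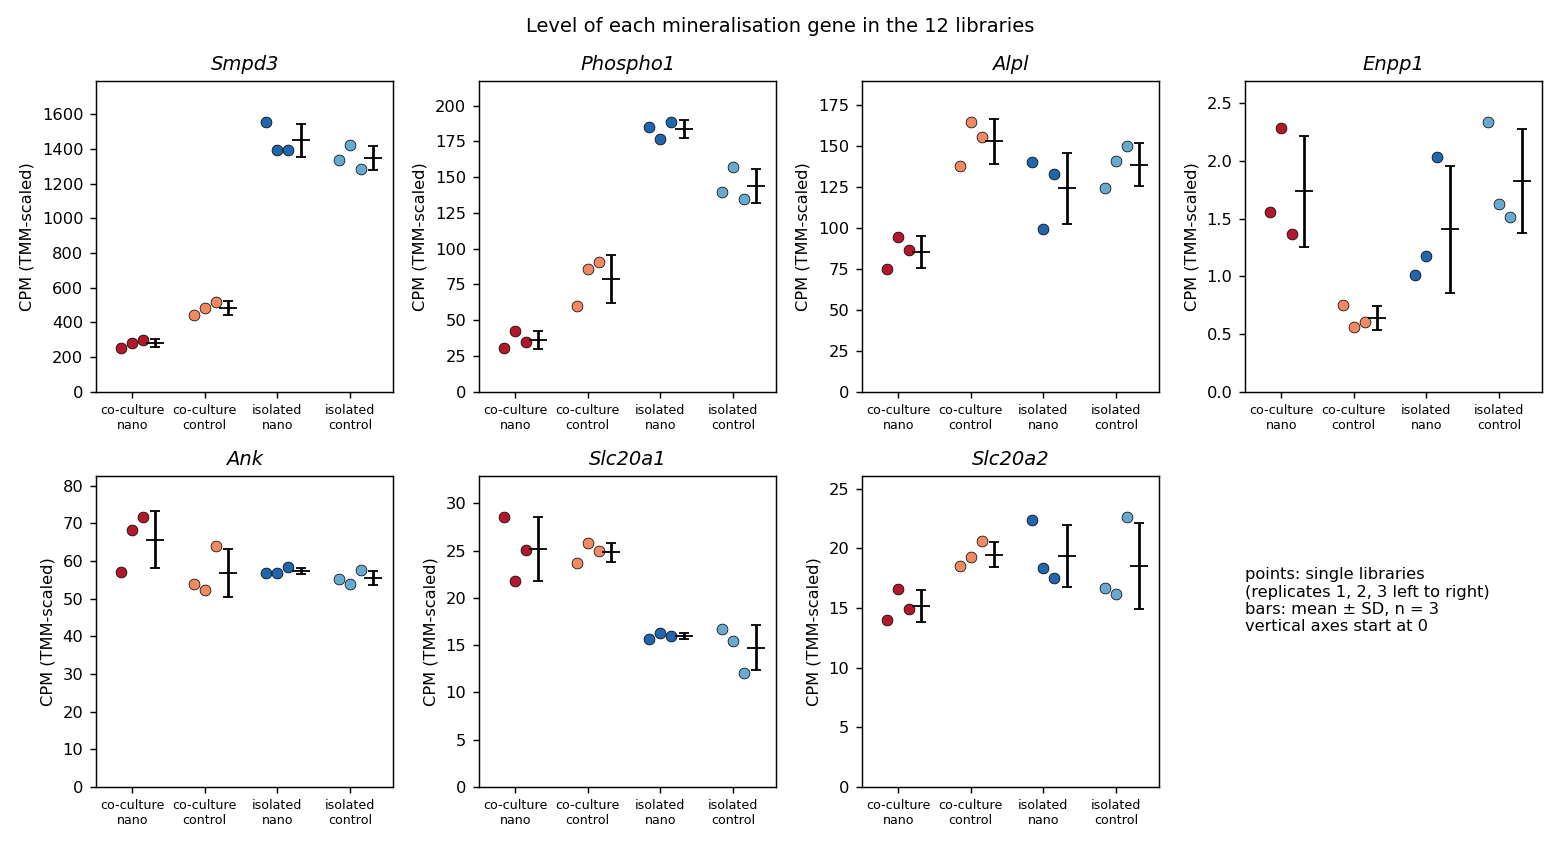
Level of each of the 7 genes in TMM-scaled CPM (vertical axes, starting at 0) in the 12 libraries, by group from co-culture on nanotopography at the left to isolated cultures on control titanium at the right. Points are libraries and bars are the mean ± SD (n = 3); the co-culture points of Smpd3 and Phospho1 lie below all isolated points, and those of Slc20a1 lie above them.

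Smpd3, a neutral sphingomyelinase gene, was the most abundant per length of exon in all 4 groups, leaving aside Phospho1. The level of Phospho1 per length is uncertain because most of its exon bases are shared with other genes. Smpd3 measured 253, 281 and 299 CPM in co-cultures on nanotopography and 441, 484 and 519 CPM in co-cultures on control titanium. Isolated cells held 1559, 1395 and 1397 CPM on nanotopography and 1340, 1421 and 1286 CPM on control titanium. Both co-culture groups lay below all isolated libraries and apart from each other, while the isolated groups overlapped. On control titanium the co-culture level was 0.357 times that of isolated cells (log2 fold change -1.49 ± 0.10 SE, adjusted p = 6.46e-08). On nanotopography it was 0.192 times that of isolated cells (-2.38 ± 0.11 SE, adjusted p = 9.36e-11), and -1.79 GC-adjusted, where the call held. Within co-culture Smpd3 was lower on nanotopography than on control titanium (-0.79 ± 0.10 SE, adjusted p = 4.79e-05; GC-adjusted -0.29, still called). In isolated cells the surface difference was 0.10, with an approximate 95% interval of -0.13 to 0.34 and adjusted p = 0.510. Smpd3 shares 247 of its 5232 exon bases with Prmt7 on the other strand.

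The 2 surfaces gave different co-culture effects on Smpd3 as counted. The interaction, which is the co-culture effect on nanotopography minus that on control titanium, was -0.90 ± 0.14 SE (adjusted p = 2.48e-04). Of all tested genes, 47.8% were called for the interaction, 22.4% higher and 25.4% lower, and 4 of the 7 genes were called. Once GC-adjusted, 20.8% of all tested genes and 1 of the 7, Ank, were called. The GC-adjusted interaction of Smpd3 was -0.21 and not called. The GC and length trend at Smpd3 was itself -0.38 on the log2 scale in co-cultures on nanotopography, 0.13 in co-cultures on control titanium, 0.21 in isolated cultures on nanotopography and 0.04 in isolated cultures on control titanium. On control titanium the co-culture effect was -1.49 as counted and -1.58 GC-adjusted.

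Phospho1, which encodes the phosphocholine phosphatase downstream of Smpd3, followed the same order of groups. It measured 30.3, 42.5 and 34.6 CPM in co-cultures on nanotopography and 59.6, 85.6 and 90.7 CPM in co-cultures on control titanium. In isolated cells it measured 185, 177 and 189 CPM on nanotopography and 139, 157 and 135 CPM on control titanium. The 4 groups did not overlap with each other. On control titanium the co-culture level was 0.545 times the isolated level (-0.88 ± 0.14 SE, adjusted p = 4.29e-04; GC-adjusted -0.75, still called). On nanotopography the co-culture level was 0.195 times the isolated level (-2.36 ± 0.15 SE, adjusted p = 6.59e-09), and the GC-adjusted difference was -1.12, still called.

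Within co-culture Phospho1 was lower on nanotopography, with a log2 difference of -1.13 ± 0.15 SE (adjusted p = 5.93e-05), but the GC-adjusted difference of -0.29 was not called. In isolated cultures on nanotopography all libraries lay above those on control titanium, with a difference of 0.35 ± 0.14 SE that did not pass (adjusted p = 0.109; GC-adjusted 0.08). The interaction was -1.48 ± 0.21 SE (adjusted p = 1.10e-04), and -0.37 and not called when GC-adjusted. The trend at this gene, the richest of the 7 in GC, was -0.77 in co-cultures on nanotopography, 0.07 in co-cultures on control titanium, 0.48 in isolated cultures on nanotopography and 0.22 in isolated cultures on control titanium.

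The reads of Phospho1 are the least certain of the 7 genes to assign. Of its 2029 exon bases at chr11:95824499-95832140, 1818 are shared with Zfp652 on the same strand and 1708 with Abi3 on the opposite strand, and 211 lie in no other gene. How the authors counted reads in shared bases, and whether by strand, is not given in the sources used here. Zfp652, a zinc finger gene, was not called as counted in co-culture against isolated cultures on control titanium (-0.26, adjusted p = 0.155) or on nanotopography (0.14, adjusted p = 0.340). GC-adjusted, Zfp652 was called lower in co-culture on control titanium (-0.30, adjusted p = 0.0129) and on nanotopography (-0.37, adjusted p = 0.00165). Abi3, which encodes an adaptor of the actin-regulating WAVE complex, fell beside Phospho1, with -1.39 on control titanium (adjusted p = 4.56e-05) and -2.10 on nanotopography (adjusted p = 1.96e-07). The GC-adjusted differences of Abi3 were -1.34 on control titanium and -1.03 on nanotopography, both still called. Abi3 held 11.5 to 15.9 CPM in co-cultures on nanotopography, 18.6 to 28.7 in co-cultures on control titanium, 46.3 to 76.2 in isolated cultures on nanotopography and 62.4 to 65.8 in isolated cultures on control titanium. Whether reads of Abi3 and Phospho1 were told apart in the shared bases is not known, since this depends on the use of strand. Strand does not separate reads of Zfp652 and Phospho1 in theirs.

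Alpl, the gene of tissue-nonspecific alkaline phosphatase, did not follow Smpd3 and Phospho1 on control titanium. It measured 74.7, 94.4 and 86.5 CPM in co-cultures on nanotopography and 138, 165 and 155 CPM in co-cultures on control titanium. Isolated cells held 140, 99.2 and 133 CPM on nanotopography and 124, 141 and 150 CPM on control titanium. Co-culture on nanotopography lay below all other libraries, and the other 3 groups overlapped. Against isolated cells, the co-culture difference on control titanium was 0.14 ± 0.13 SE (adjusted p = 0.479), with an approximate 95% interval of -0.16 to 0.45.

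On nanotopography Alpl was lower in co-culture as counted and higher once GC-adjusted. The counted difference was -0.54 ± 0.13 SE (adjusted p = 0.00244), and the GC-adjusted difference was 0.23, called in the other direction, a call lost once a replicate block was added (adjusted p = 0.0538). Within co-culture Alpl was lower on nanotopography (-0.84 ± 0.13 SE, adjusted p = 2.47e-04; GC-adjusted -0.25, still called, but not with a replicate block added, at adjusted p = 0.0637). In isolated cells the surface difference was -0.16 ± 0.13 SE (adjusted p = 0.440), and -0.38 and called once GC-adjusted. The interaction was -0.68 ± 0.19 SE (adjusted p = 0.00728), and 0.12 and not called once GC-adjusted. Of the co-culture effects on Alpl, that on nanotopography therefore depended on the GC adjustment for its direction, and that on control titanium was not called either way.

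**Figure D2:**
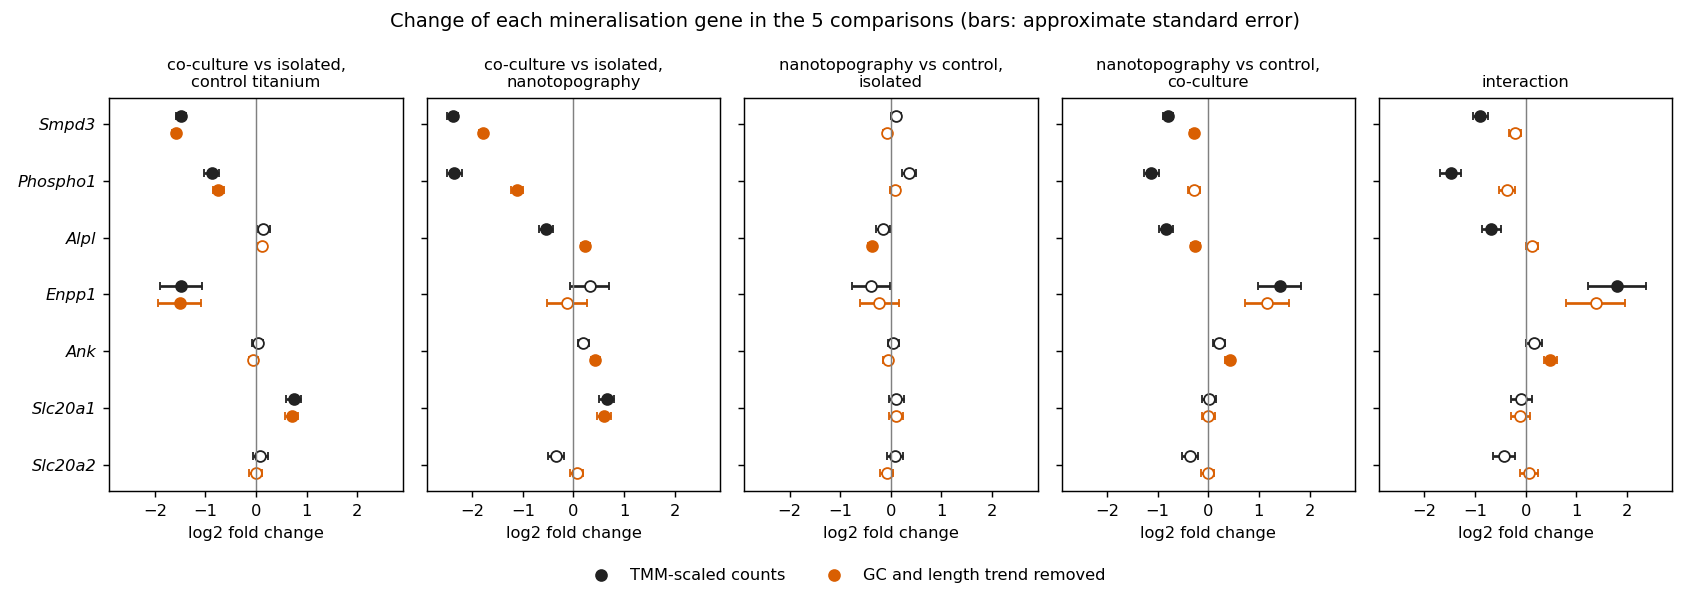
Log2 fold change of each gene (rows) in 4 comparisons between groups and their interaction (panels), as counted with TMM scaling in black and with the GC and length trend removed in orange; bars are approximate SE, and filled points are called at an adjusted p below 0.05. Smpd3 and Phospho1 lie left of 0 and Slc20a1 right of 0 for co-culture on both surfaces in both colours, while Alpl changes sides of 0 on nanotopography.

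Enpp1, which encodes the pyrophosphate-making ectoenzyme, was by far the least abundant of the 7 genes per length of exon. Its reads numbered 11, 18 and 9 in co-cultures on nanotopography, 7, 4 and 4 in co-cultures on control titanium, 6, 8 and 12 in isolated cultures on nanotopography and 18, 14 and 9 in isolated cultures on control titanium. These are 1.74 ± 0.485, 0.638 ± 0.104, 1.41 ± 0.552 and 1.83 ± 0.450 CPM in the same order. Co-culture on control titanium lay below all other libraries, and the other 3 groups overlapped. Against isolated cultures on control titanium, its co-culture difference was -1.48 ± 0.42 SE (adjusted p = 0.0205; GC-adjusted -1.51, still called). Leaving out co-culture replicate 2 or 3 or isolated replicate 1 on control titanium ended that call. Over the 12 libraries left out in turn, the log2 fold change ran from -1.62 to -1.26 and the adjusted p from 0.0195 to 0.105.

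On nanotopography the co-culture difference of Enpp1 was 0.32 ± 0.39 SE (adjusted p = 0.482), and -0.12 GC-adjusted. Within co-culture Enpp1 was higher on nanotopography (1.41 ± 0.43 SE, adjusted p = 0.0147), but the GC-adjusted difference of 1.16 was not called, and leaving out co-culture replicate 2 of either surface also ended the call. In isolated cells the surface difference was -0.39 ± 0.38 SE (adjusted p = 0.512). The interaction was 1.81 ± 0.57 SE (adjusted p = 0.0160), and 1.39 and not called once GC-adjusted. Leaving out isolated replicate 1 on control titanium ended the interaction call, with a log2 value of 1.59 and adjusted p = 0.0507.

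Ank, the second gene on the pyrophosphate side, was the steadiest of the 7 as counted, and it was called in 0 of the 4 comparisons between groups by edgeR, DESeq2 and limma-voom, with 0 at an unadjusted p of 0.05. It measured 57.2, 68.2 and 71.8 CPM in co-cultures on nanotopography and 53.9, 52.4 and 64.0 CPM in co-cultures on control titanium. Isolated cells held 56.8, 57.0 and 58.4 CPM on nanotopography and 55.2, 54.0 and 57.6 CPM on control titanium. Every pair of groups overlapped. In co-culture against isolated cells, the difference was 0.03 on control titanium, with an approximate 95% interval of -0.23 to 0.29 (adjusted p = 0.878). It was 0.20 on nanotopography, with an interval of -0.06 to 0.45 (adjusted p = 0.143), and without co-culture replicate 1 on nanotopography it was 0.29 and called (adjusted p = 0.0449). Once GC-adjusted, Ank was called higher in co-cultures on nanotopography, with 0.43 against isolated cultures on nanotopography and 0.42 against co-culture on control titanium, and the GC-adjusted interaction of 0.49 was called. As counted, the interaction was 0.16 (adjusted p = 0.406).

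Slc20a1, which encodes the phosphate importer PiT-1, was the only one of the 7 called higher in co-culture on both surfaces as counted. It measured 28.6, 21.8 and 25.05 CPM in co-cultures on nanotopography and 23.7, 25.8 and 24.96 CPM in co-cultures on control titanium. Isolated cells held 15.6, 16.3 and 16.0 CPM on nanotopography and 16.7, 15.5 and 12.1 CPM on control titanium. Every co-culture library lay above every isolated library, and the surfaces overlapped within each culture. The co-culture level was 1.67 times the isolated level on control titanium (0.74 ± 0.14 SE, adjusted p = 0.00162; GC-adjusted 0.70, still called). On nanotopography it was 1.57 times the isolated level (0.65 ± 0.14 SE, adjusted p = 9.91e-04; GC-adjusted 0.60, still called).

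The surface difference of Slc20a1 was 0.02 in co-culture, with an approximate 95% interval of -0.30 to 0.33 (adjusted p = 0.925). In isolated cells it was 0.11, with an interval of -0.24 to 0.45 (adjusted p = 0.667). The interaction was -0.09 ± 0.20 SE (adjusted p = 0.744), with an interval of -0.56 to 0.38. Its transcript sits near the middle of the GC range, and the trend at Slc20a1 stayed between -0.02 and 0.03 in the 4 groups. Slc20a1 shares 280 exon bases with Gm4430 and 452 with 9830144P21Rik, both on the opposite strand. These held at most 2.68 CPM and 0.336 CPM in a library.

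Slc20a2, which encodes the paralogous importer PiT-2, was not called in any of the 4 comparisons between groups by edgeR as counted. It measured 14.0, 16.6 and 14.9 CPM in co-cultures on nanotopography and 18.6, 19.2 and 20.6 CPM in co-cultures on control titanium. Isolated cells held 22.4, 18.3 and 17.5 CPM on nanotopography and 16.7, 16.2 and 22.7 CPM on control titanium. Co-culture on nanotopography lay below the other group in both of its comparisons. The difference was -0.35 ± 0.16 SE against isolated cultures on nanotopography (unadjusted p = 0.0399 and adjusted p = 0.0647 by edgeR). It was also -0.35 ± 0.16 SE against co-culture on control titanium (unadjusted p = 0.0354 and adjusted p = 0.0744 by edgeR). GC-adjusted, these differences were 0.06 and -0.01. Leaving out isolated replicate 3 on control titanium, which also changes the shared estimate of spread, made both called at -0.35 (adjusted p = 0.0414 and 0.0486), and the interaction at -0.59 (adjusted p = 0.0258). On control titanium the co-culture difference was 0.08, with an approximate 95% interval of -0.27 to 0.43 (adjusted p = 0.746).

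**Figure D3:**
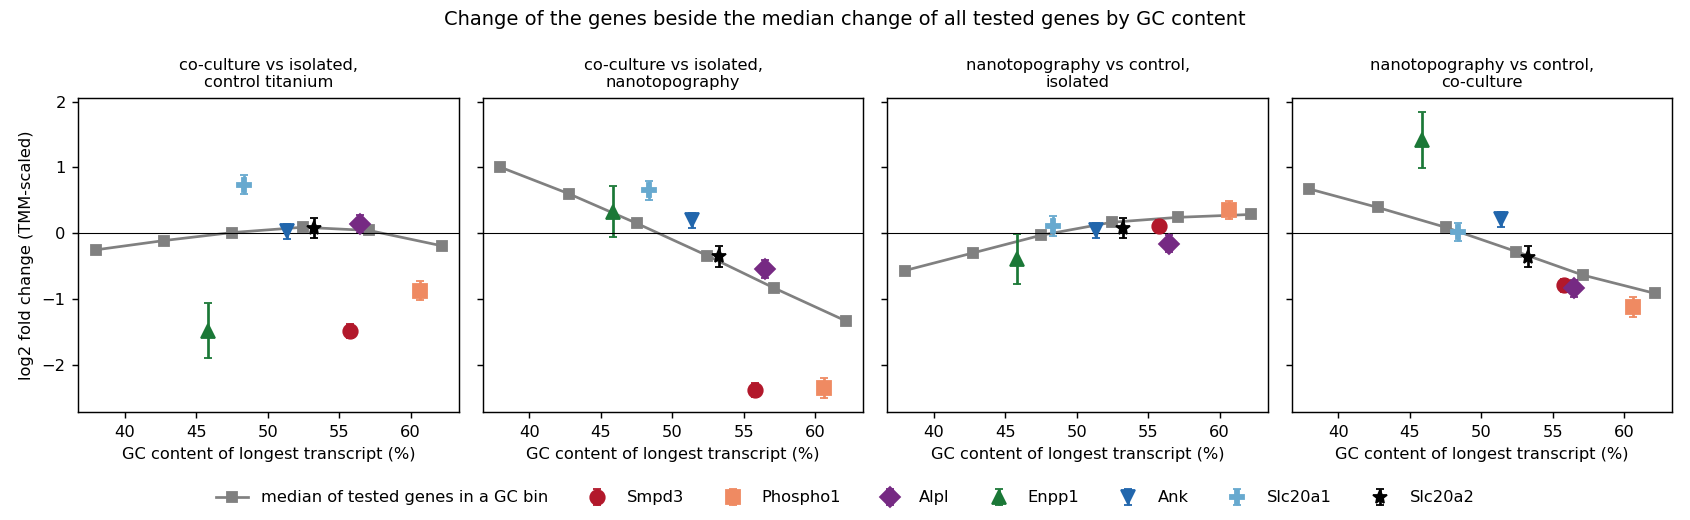
Log2 fold change of the 7 genes as counted (coloured symbols, bars are approximate SE) against the GC content of the longest transcript, beside the median of all tested genes in 6 GC bins (grey squares), in 4 comparisons. On control titanium the grey medians stay between -0.25 and 0.09 and Smpd3, Phospho1, Enpp1 and Slc20a1 lie away from them, whereas on nanotopography the medians run from 1.01 to -1.34 and Slc20a2 lies close to them.

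By level per kilobase of exon, in co-cultures on nanotopography Smpd3 had 53.1, Alpl 21.1, Ank 18.2, Phospho1 17.6, Slc20a1 4.51, Slc20a2 2.44 and Enpp1 0.169 CPM per kb. In isolated cultures on control titanium Smpd3 had 258, Phospho1 70.9, Alpl 34.3, Ank 15.4, Slc20a2 2.98, Slc20a1 2.64 and Enpp1 0.178 CPM per kb. The values of Phospho1 take its reads as spread over all 2029 of its exon bases. Only 211 of these lie in no other gene and the counting of shared reads is not given, so its place among the genes, Smpd3 included, is uncertain. On that reckoning the libraries of Alpl, Ank and Phospho1 overlapped in co-cultures on nanotopography, at 21.1 ± 2.46, 18.2 ± 2.11 and 17.6 ± 3.06 CPM per kb. Co-cultures on control titanium held Phospho1 at 38.7 ± 8.23 and Alpl at 37.9 ± 3.39 CPM per kb, which differed by less than their spread.

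Slc20a1 exceeded its paralog Slc20a2 per kilobase in every co-culture library, whereas isolated libraries showed no fixed order. The log2 ratio of Slc20a1 to Slc20a2 per kilobase was 1.18, 0.55 and 0.91 in co-cultures on nanotopography and 0.51, 0.58 and 0.43 in co-cultures on control titanium. In isolated cells it was -0.36, -0.02 and 0.02 on nanotopography and 0.16, 0.09 and -0.75 on control titanium. The isolated libraries of each surface lay on both sides of 0. The group means were 0.88 ± 0.32, 0.51 ± 0.07, -0.12 ± 0.21 and -0.17 ± 0.51 in that order, and GC-adjusted 0.59, 0.59, 0.07 and -0.15. The ratio was described and not tested.

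The log2 ratio of Alpl to Enpp1, the enzymes that break down and make pyrophosphate, was highest in co-cultures on control titanium. It was 5.59, 5.37 and 5.98 in co-cultures on nanotopography and 7.51, 8.21 and 8.01 in co-cultures on control titanium. Isolated cells gave 7.12, 6.401 and 6.03 on nanotopography and 5.73, 6.44 and 6.63 on control titanium. The 3 libraries of co-culture on control titanium lay above the other 9, and those were the libraries with 4 to 7 reads of Enpp1. The mean in co-cultures on nanotopography was 5.65 ± 0.31, and 6.39 GC-adjusted. This ratio uses CPM and not length, so it compares groups and not the 2 genes.

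Across the 12 libraries the log2 CPM of Smpd3 and Phospho1 ran together, with Pearson r 0.97 as counted and 0.97 GC-adjusted. The r of Alpl with Smpd3 was 0.51 as counted and -0.37 GC-adjusted. Slc20a1 ran against Smpd3 with r -0.89 in both cases. The libraries fall into groups by culture, and r is given as a description. Among 8023 tested protein-coding genes with a mean of at least 10 CPM, those most like Smpd3 were Scarf2 (r 0.996), Kdelr2 (0.994) and Gpr153 (0.993), and Scarf2 also led GC-adjusted (0.992). Those most like Phospho1 were H2afj, Ndufb7 and Rnaseh2c as counted (0.992 to 0.994) and Rcn3, Tmed9 and Golt1b GC-adjusted (0.973 to 0.976). For Alpl they were Slc44a2 (0.980), Spon2 (0.967) and Tnfaip2 (0.964), and GC-adjusted Narf, Ncf1 and Slc6a4 (0.917 to 0.919) took their place. For Slc20a1 they were Nfkbiz (0.963), Nhlrc3 (0.955) and Washc2 (0.952), and Nfkbiz and Washc2 remained among the first 3 GC-adjusted. Enpp1 was most like Six4 (0.899), Trak2 (0.897) and Med14 (0.873), Ank most like Cachd1 (0.900), Ltbp1 (0.787) and Pdss2 (0.749), and Slc20a2 most like Sec14l1 (0.925), Ints11 (0.924) and Prmt5 (0.918). GC-adjusted, Trak2, Cachd1 and Sec14l1 remained among the first 3 for Enpp1, Ank and Slc20a2, and the others of these did not.

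Of 37 other listed sphingolipid genes 29 were tested, and in co-cultures on control titanium 2 rose, 2 fell and 25 were not called, beside 19.7% called among all tested genes, with a list median of 0.11 beside -0.02 over all tested genes. Sgms2, a sphingomyelin synthase that supplies the substrate of neutral sphingomyelinase, fell to 197 ± 4.24 CPM in co-culture, against 346 ± 24.8 CPM in isolated cells (-0.81 ± 0.10 SE, adjusted p = 2.37e-05). Sgpl1, the lyase that degrades sphingosine-1-phosphate, rose to 102 ± 4.56 CPM, against 68.3 ± 9.09 CPM (0.58 ± 0.11 SE, adjusted p = 0.00121). The other sphingomyelinases that were tested, Smpd1 of the lysosome, Smpd2 and Smpd4, were not called on control titanium, with 0.12 (adjusted p = 0.651), 0.15 (adjusted p = 0.698) and 0.12 (adjusted p = 0.685).

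On nanotopography, 15 of the 29 sphingolipid genes were higher and 6 lower in co-culture, beside 28.7% higher and 30.4% lower among all tested genes, with a list median of 0.36 beside 0.00 over all tested genes. GC-adjusted, 6 rose and 4 fell, beside 39.4% of all tested genes called, and the median was 0.05. Ugcg, the glucosylceramide synthase, rose to 66.7 ± 9.004 CPM in co-culture, against 23.3 ± 2.00 CPM in isolated cells (1.52 ± 0.15 SE, adjusted p = 4.77e-07; GC-adjusted 0.99). Cers6, a ceramide synthase, rose to 83.8 ± 15.7 CPM, against 34.5 ± 1.58 CPM (1.28 ± 0.17 SE, adjusted p = 1.20e-05; GC-adjusted 0.70). Sgms2 was lower in co-culture here too (-0.62 ± 0.10 SE, adjusted p = 5.06e-05; GC-adjusted -1.14). Of the other sphingomyelinases, Smpd1 was lower in co-culture as counted (-0.41, adjusted p = 0.039) but not called GC-adjusted, at 0.26. Smpd2 (-0.60, adjusted p = 0.0519) and Smpd4 (-0.10, adjusted p = 0.644) were not called.

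For the surface, 0 sphingolipid genes rose and 5 fell in isolated cells by edgeR, beside 9.71% of all tested genes called, and GC-adjusted 1 fell, beside 5.45%. In co-culture 8 rose and 6 fell, beside 42.0% called among all tested genes, and 2 and 3 did so GC-adjusted, beside 18.3%. Sgms2 was lower on nanotopography both in co-culture (-0.43, adjusted p = 0.00318; GC-adjusted -0.75) and in isolated cells (-0.62, adjusted p = 0.00863; GC-adjusted -0.40). Samd8, which makes ceramide phosphoethanolamine, was lower on nanotopography in isolated cells (-0.50, adjusted p = 0.0266), but at -0.11 was not called GC-adjusted. Both isolated calls were lost without isolated replicate 1 or 2 on control titanium or replicate 3 on nanotopography, where the adjusted p of Sgms2 was 0.0558, 0.0544 and 0.0726 and that of Samd8 0.136, 0.0711 and 0.128, and Samd8 was also lost without isolated replicate 1 on nanotopography (0.133). Col4a3bp, the ceramide transfer protein, was higher on nanotopography in co-culture (0.83, adjusted p = 5.69e-04; GC-adjusted 0.35, still called), and so was Ugcg (0.74, adjusted p = 9.27e-04; GC-adjusted 0.40, still called).

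Of 34 other listed phosphate and pyrophosphate genes 33 were in the files and 16 were tested, and the SLC34 phosphate transporters Slc34a1, Slc34a2 and Slc34a3, the intestinal and germ-cell alkaline phosphatases Alpi, Akp3 and Alppl2, and the hormone genes Fgf23 and Kl had 0 reads in all libraries. In co-culture on control titanium 0 rose and 2 fell by edgeR, beside 10.9% higher and 8.72% lower of all tested genes, with a list median of -0.18 beside -0.02 over all tested genes. Ppa1, the cytosolic pyrophosphatase, fell to 83.6 ± 6.17 CPM, against 128 ± 8.97 CPM in isolated cells (-0.62 ± 0.10 SE, adjusted p = 5.22e-04). Panx3, a pannexin channel of osteoblasts that can release ATP, the substrate of ENPP1, fell to 458 ± 17.9 CPM, against 638 ± 16.1 CPM (-0.48 ± 0.09 SE, adjusted p = 0.00121). Both were also lower in co-cultures on nanotopography, Ppa1 at -0.55 (adjusted p = 2.46e-04; GC-adjusted -1.03) and Panx3 at -0.32 (adjusted p = 0.00505; GC-adjusted -0.71).

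On nanotopography, 4 of the 16 phosphate genes rose and 6 fell in co-culture, a share near the 59.2% of all tested genes. GC-adjusted, 1 rose and 5 fell, beside 39.4% of all tested genes called. Entpd3, an ectonucleotidase, fell to 21.6 ± 2.73 CPM in co-culture, against 41.0 ± 5.99 CPM in isolated cells (-0.92 ± 0.14 SE, adjusted p = 4.17e-05; GC-adjusted -0.74). Fam20c, a kinase of secreted matrix proteins, fell as counted (-0.86 ± 0.13 SE, adjusted p = 2.94e-05), but its GC-adjusted difference was 0.01. Phex, a membrane peptidase whose loss causes hypophosphataemic rickets, was lower on nanotopography in isolated cells at 6.20 ± 2.29 CPM, against 14.2 ± 1.85 CPM on control titanium (-1.19 ± 0.23 SE, adjusted p = 0.0134; GC-adjusted -0.71). It was the only 1 of the 16 called for the surface in isolated cells by edgeR as counted, beside 9.71% of all tested genes. Leaving out isolated replicate 1 or 2 on control titanium or isolated replicate 1 or 3 on nanotopography ended the call (adjusted p = 0.0616, 0.0644, 0.0793 and 0.103). Xpr1, the phosphate exporter, was not called there by edgeR (-0.45, adjusted p = 0.0549; GC-adjusted -0.16). It was called by DESeq2 (adjusted p = 0.0435) and by edgeR with no filter on low counts (adjusted p = 0.0187). It was also called by edgeR in 4 of the 12 fits with a library left out (adjusted p down to 0.0145). In co-culture 1 was higher and 2 were lower on nanotopography, beside 42.0% of all tested genes called, Fam20c (-0.68, adjusted p = 8.98e-04) and Entpd3 (-0.41, adjusted p = 0.0305), and neither of these was called GC-adjusted (-0.01 and -0.25). The Entpd3 call was also lost with upper-quartile scaling (adjusted p = 0.0526). Leaving out co-culture replicate 2 or 3 on control titanium or co-culture replicate 1 on nanotopography ended it too (adjusted p = 0.128, 0.0773 and 0.139).

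**Figure D4:**
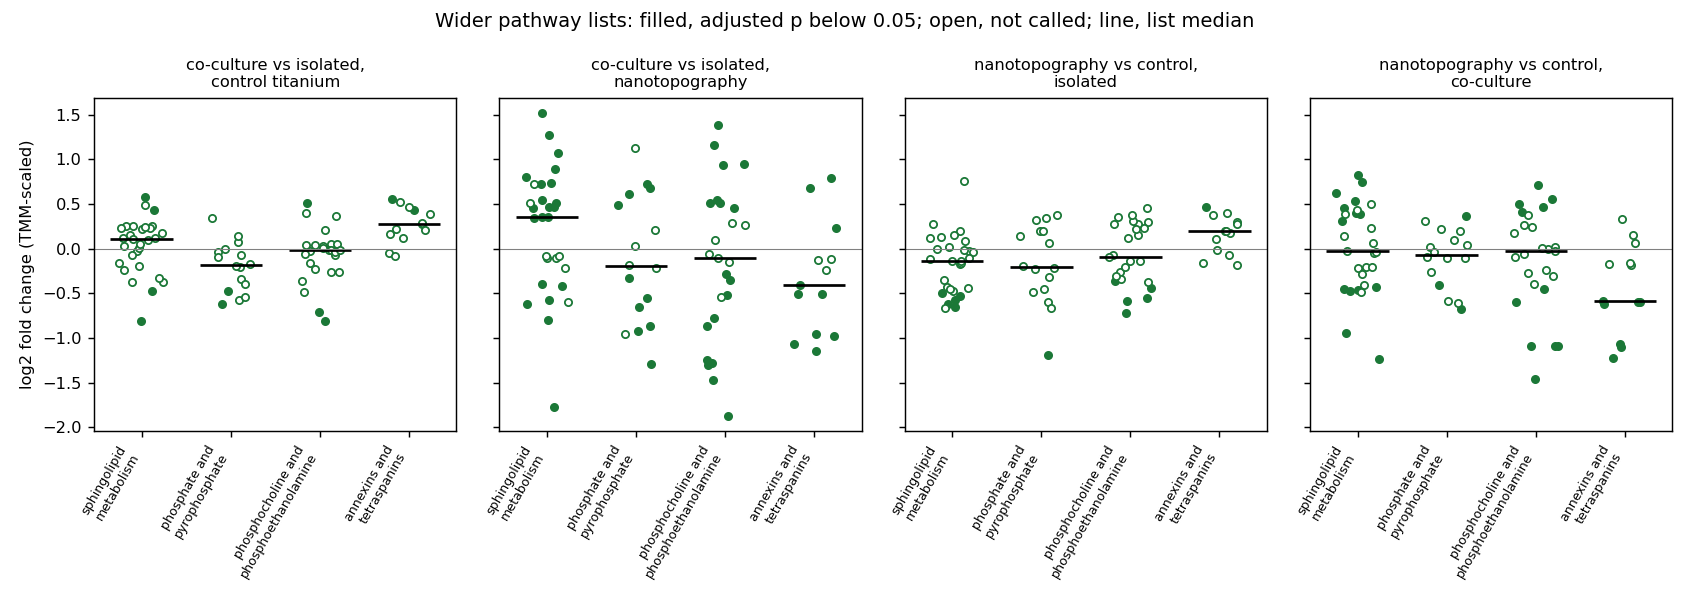
Log2 fold change as counted of the tested genes of 4 wider lists (columns) in 4 comparisons (panels); each point is a gene, filled where called at an adjusted p below 0.05, and the bar is the list median. Filled points are more frequent in both comparisons with co-culture on nanotopography, where 59.2% and 42.0% of all tested genes were called, than on control titanium (19.7%) and in isolated cells (9.71%).

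Of 32 listed genes that make and use phosphocholine and phosphoethanolamine, the substrates of PHOSPHO1, 25 were tested. On control titanium 1 was higher and 2 were lower in co-culture, beside 19.7% of all tested genes called, with a median of -0.02. Lpcat3, which rebuilds phosphatidylcholine from its lysolipid, fell to 17.3 ± 3.14 CPM, against 30.3 ± 2.46 CPM in isolated cells (-0.81 ± 0.14 SE, adjusted p = 5.96e-04). Pcyt2, which activates phosphoethanolamine, fell to 17.8 ± 2.99 CPM, against 29.1 ± 2.26 CPM (-0.71 ± 0.16 SE, adjusted p = 0.00565). On nanotopography 8 were higher and 10 lower in co-culture, beside 59.2% of all tested genes called, and GC-adjusted 3 and 9 beside 39.4%. Pla2g4a, the cytosolic phospholipase A2 gene, rose to 117 ± 20.3 CPM in co-culture, against 44.8 ± 7.01 CPM in isolated cells (1.38 ± 0.14 SE, adjusted p = 6.24e-07; GC-adjusted 0.93), and Lpcat3 was again lower (-1.30, adjusted p = 1.29e-06; GC-adjusted -0.91).

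The paralogous choline kinases, which make phosphocholine, moved in opposite directions in co-cultures on nanotopography. Chka rose to 59.8 ± 7.40 CPM, against 26.7 ± 4.04 CPM in isolated cultures on nanotopography (1.16 ± 0.15 SE, adjusted p = 5.27e-06; GC-adjusted 1.19). Chkb fell to 1.34 ± 0.331 CPM, against 4.99 ± 1.08 CPM (-1.87 ± 0.31 SE, adjusted p = 8.24e-05; GC-adjusted -1.11, still called). Chkb rested on few reads, 29 in all over the co-cultures on nanotopography and 92 over the isolated cultures on nanotopography. On control titanium neither was called for co-culture, with 0.06 (adjusted p = 0.817) for Chka and 0.05 (adjusted p = 0.936) for Chkb. For the surface, Chka was higher in co-culture (0.55, adjusted p = 0.00541; GC-adjusted 0.63) and lower in isolated cells (-0.55, adjusted p = 0.0316; GC-adjusted -0.58). Of the 25 genes, 0 were called higher and 5 lower on nanotopography in isolated cells by edgeR, and 5 higher and 6 lower in co-culture, beside 9.71% and 42.0% of all tested genes called. Gpcpd1, which splits glycerophosphocholine, was also lower on nanotopography in isolated cells (-0.58, adjusted p = 0.0328), but its GC-adjusted difference was -0.01. The isolated calls of Chka and Gpcpd1 were each lost without any of 4 libraries, isolated replicates 1 and 2 on control titanium and 1 and 3 on nanotopography, with adjusted p up to 0.161 and 0.169. In co-culture on nanotopography the phospholipase D family gene Pld3 measured 20.0 ± 5.10 CPM, against 42.8 ± 6.72 CPM in co-culture on control titanium (-1.09 ± 0.16 SE, adjusted p = 1.37e-04; GC-adjusted -0.39, still called), and Chkb was lower as well (-1.46, adjusted p = 0.00224; GC-adjusted -0.88).

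Of 13 annexins and tetraspanins, proteins carried by matrix vesicles and other vesicles, all were tested. In co-culture on control titanium 3 rose and 0 fell by edgeR, beside 10.9% higher and 8.72% lower among all tested genes, with a median of 0.27. Anxa1 rose to 556 ± 36.2 CPM, against 412 ± 22.6 CPM in isolated cells (0.43 ± 0.09 SE, adjusted p = 0.00366), and the tetraspanin gene Cd81 to 165 ± 10.6 CPM, against 113 ± 11.3 CPM (0.55 ± 0.12 SE, adjusted p = 0.00484). On nanotopography 3 rose and 7 fell, beside 28.7% higher and 30.4% lower among all tested genes, and GC-adjusted 3 and 3 beside 39.4% called. Anxa1 was higher here too (0.68, adjusted p = 1.33e-05; GC-adjusted 0.24, still called). Anxa6 fell to 170 ± 27.9 CPM in co-culture, against 329 ± 50.8 CPM in isolated cells (-0.95 ± 0.14 SE, adjusted p = 2.94e-05; GC-adjusted -0.46). Anxa5, the calcium-binding annexin best known from matrix vesicles, was also lower (-0.51, adjusted p = 8.37e-04; GC-adjusted -0.26, still called). In isolated cells 1 was called for the surface, beside 9.71% of all tested genes. This was Anxa6, higher on nanotopography (0.47, adjusted p = 0.0466), but 8 of the 12 libraries ended that call when left out (adjusted p up to 0.219), and GC-adjusted it was 0.29 and not called. Anxa5 was not called there (0.27, adjusted p = 0.109). In co-culture, 7 of the 13 were lower and 0 higher on nanotopography by edgeR, beside 23.3% lower and 18.6% higher among all tested genes, and 6 were lower GC-adjusted, beside 18.3% called. The tetraspanin genes Cd151 and Cd82 were among them, at -1.23 (adjusted p = 8.38e-04; GC-adjusted -0.80) and -1.10 (adjusted p = 9.38e-04; GC-adjusted -0.60).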

How the data were processed

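RNA of MC3T3-E1 osteoblasts was sequenced in 12 libraries, 4 groups of 3, prepared with a SMARTer kit per the labels' protocols. The authors deposited whole-number counts of reads per gene, one file per library. The submitters' processing notes name cutadapt, FastQC 0.63, STAR 2.4, HTSeq, DESeq2 and build mm10, and their roles, the annotation and the use of strand are not given in the sources used here. Of the count files, 11 of 12 end within a line, so the 52654 genes complete in every file were used, which kept 99.924% or more of the counts of each library. All 52654 identifiers matched GENCODE M21 without their version and 52092 with it, and names, exons and GC content come from there.

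Counts were tested with the quasi-likelihood F test of edgeR 4.0.16 in R 4.3.3 (glmQLFit and glmQLFTest, TMM scaling, filterByExpr) in 1 fit of all 12 libraries with 4 group means, and p-values were adjusted by Benjamini-Hochberg over the 13340 genes tested, with a call at 0.05. The biological coefficient of variation was 12.27%. SE was taken as the log2 fold change over √F, and the approximate 95% intervals use a t distribution with 8 degrees of freedom, so both are approximations. Log2 CPM used a prior count of 2, and levels between genes are CPM per kb of the union of exons. The GC-adjusted values use an offset per library from loess trends (span 0.3) of log counts with GC content and length of the longest transcript. The script was tested on simulated data.

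The alternatives were scaling by RLE or by the upper quartile, 2 other filters, DESeq2 1.42.0, limma-voom (limma 3.58.1), the groups compared alone, a fit without mitochondrial genes, Gm26917 and Gm42418, the GC adjustment, a replicate block and each library left out. The 7 genes and the lists around them were chosen with earlier results of these data known. From each of the 4 wider lists the text names the 2 genes with the smallest p in each comparison between groups, and a few genes outside that rule were named after their values were seen. The 3 genes most like each of the 7 had a mean of at least 10 CPM. Promoter sequences are from RefSeq, build GRCm38.p6. The listed phosphatase gene Pdxp was not analysed here.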

Additional observations from a re-analysis of the deposited data

Results flagged for a closer look

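For 4 of the 7 genes the effect of co-culture differed between the surfaces by the interaction test of edgeR, adjusted by Benjamini-Hochberg over all tested genes, beside 47.8% of all tested genes. The log2 differences were -0.90 for Smpd3 (adjusted p = 2.48e-04), -1.48 for Phospho1 (adjusted p = 1.10e-04), -0.68 for Alpl (adjusted p = 0.00728) and 1.81 for Enpp1 (adjusted p = 0.0160). As counted, Smpd3 and Phospho1 fell in co-culture on both surfaces, and further on nanotopography (-2.38 against -1.49 and -2.36 against -0.88). The co-culture log2 fold change of Alpl was -0.54 on nanotopography and 0.14 on control titanium. For Enpp1 it was 0.32 on nanotopography and -1.48 on control titanium. GC-adjusted, the interaction values of Smpd3, Phospho1, Alpl and Enpp1 were -0.21, -0.37, 0.12 and 1.39. None of the 4 passed, beside 20.8% of all tested genes (adjusted p = 0.201, 0.0871, 0.500 and 0.0960). The part of GC content in these differences was not tested.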

How the results depend on the processing

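The calls of Smpd3, Phospho1 and Slc20a1 for co-culture on both surfaces held under every alternative run, scaling, filter, tool, block, GC adjustment and each library left out. Removing the GC and length trend moved more of the other results than any change of scaling, filter or tool, and the cause was not tested. With the trend removed, 5261 genes were called for co-culture on nanotopography. For the surface 727 were called in isolated cells and 2445 in co-culture, and 2780 were called for the interaction. Of these, 3401, 450, 1496 and 1738 were also called as counted in the same direction. Of the 7 genes, 3 were called higher for co-culture on nanotopography, 1 lower for the surface in isolated cells and 0 lower for the interaction. Signs were compared for the 7 genes, and for each listed gene named by smallest p in the comparison that named it. Some others changed sign too, such as Smpd1 for co-culture on nanotopography (-0.41 as counted, 0.26 GC-adjusted), and are not listed. The values that changed sign were Ank -0.0525 and Slc20a2 -0.0039 for co-culture on control titanium. For co-culture on nanotopography they were Alpl 0.23, Enpp1 -0.12, Slc20a2 0.0619 and Fam20c 0.0089. For the surface they were Smpd3 -0.0740, Ank -0.0648 and Slc20a2 -0.0803 in isolated cells, and Slc20a1 -0.0027 in co-culture. For the interaction they were Alpl 0.12 and Slc20a2 0.0658. The log2 ratio of Alpl to Enpp1 became 6.39 in co-cultures on nanotopography, and that of Slc20a1 to Slc20a2 became 0.59 in co-cultures on control titanium and 0.0681 in isolated cultures on nanotopography. The replicate block together with the GC adjustment gave 5051, 489, 2185 and 2508 genes in the same comparisons, with 2 genes of the 7 higher for co-culture on nanotopography, 1 lower for the surface in each culture and 0 lower for the interaction. The same values changed sign, to Ank -0.0554 and Slc20a2 -0.0048, to Alpl 0.23, Enpp1 -0.12, Slc20a2 0.0634 and Fam20c 0.0077, to Smpd3 -0.0734, Ank -0.0660 and Slc20a2 -0.0803, to Slc20a1 -0.0042, and to Alpl 0.12 and Slc20a2 0.0682. The replicate block alone called 2459, 7757, 1240, 5453 and 6231 genes for co-culture on control titanium and on nanotopography, the surface in isolated cells and in co-culture, and the interaction, against 2622, 7892, 1295, 5599 and 6383 without it, and changed no call of the 7 genes. Of 18 pairs of libraries with the same number, 6 had deviations correlated above 0.1 (r -0.39 to 0.30). These values do not show that the numbers pair the samples, and with 3 libraries a group they cannot exclude it. Upper-quartile scaling turned Ank to -0.02 for co-culture on control titanium, and ended the call of Entpd3 for the surface in co-culture. With no filter on low counts 2100 genes were called for the surface in isolated cells, Xpr1 among them.

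With each of the 12 libraries left out in turn, 1429 to 2950 genes were called for co-culture on control titanium, lowest without isolated control replicate 2 and also low without isolated control replicate 1 (1489) and co-culture control replicate 2 (1624). For the surface in isolated cells the range was 3 to 2960, with 3 without isolated control replicate 1 or 2 or isolated nanotopography replicate 3, 66 without isolated nanotopography replicate 1, 848 without co-culture nanotopography replicate 3, 2191 without isolated control replicate 3 and 2960 without isolated nanotopography replicate 2. For the surface in co-culture it was 3248 to 5913, lowest without co-culture nanotopography replicate 1. Of the 7 genes, 1 to 2 were called higher for co-culture on nanotopography (2 without co-culture nanotopography replicate 1), 0 to 1 for the surface in co-culture (0 without co-culture replicate 2 of either surface) and 0 to 1 for the interaction (0 without isolated control replicate 1). Uncalled values crossed 0 as follows. For co-culture on control titanium Ank ran from -0.0622 to 0.10 and Slc20a2 from -0.0092 to 0.24. For the surface Slc20a1 ran from -0.0079 to 0.20 and Slc20a2 from -0.0338 to 0.24 in isolated cells, and Slc20a1 from -0.0843 to 0.10 in co-culture. Slc20a1 ran from -0.19 to 0.0264 for the interaction. The log2 ratio of Slc20a1 to Slc20a2 ran from -0.33 to 0.12 in isolated control and from -0.19 to 0.0041 in isolated nanotopography cultures. Enpp1 had 4 to 18 reads a library, so its values carry the widest counting error of the 7 genes. The fit of only the groups compared was not run for the interaction, which needs all 12 libraries.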
